A study of Mus musculus with 6 samples.

Results

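The 40 genes described here encode proteins that carry a cell from G2 through mitosis: cyclins and the kinase they activate, mitotic kinases, the spindle checkpoint, kinetochore and spindle proteins, the cytokinesis machinery and chromosome proteins. They were taken by gene name from a table of 54532 genes, and all 40 were present and passed the filter on low counts that left 13472 genes for testing. Kinesin motor genes were kept out of the selection, although one member, Cenpe, encodes a kinesin-like motor of the kinetochore. RNA was sequenced from mouse Glu-tag cells, an enteroendocrine tumour line labelled as small intestine, in a study of small intestinal neuroendocrine tumours. In 3 libraries, called shControl, the cells carried a control hairpin and are labelled wild type, and in 3 libraries, called shIRS2, the cells carried a stable hairpin against Irs2, which encodes an adaptor of the insulin and IGF receptors, and are labelled as a knockdown. No drug, time point or other allele is named for either group. The hairpin sequences, the number of hairpins or clones, the culture conditions and what the numbers 1 to 3 of the titles mark were not given in the sources used here. The series text calls the samples biological triplicates while every sample description carries the same replicate number, so p-values measure only the spread between these samples, which may be technical.

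Entry into mitosis is driven by CDK1 bound to A- and B-type cyclins, which CDC25 phosphatases switch on by removing inhibitory phosphates. Aurora and Polo-like kinases then build the spindle, the spindle checkpoint holds back the anaphase-promoting complex (APC/C) until chromosomes are attached, and destruction of cyclin B and securin lets sister chromatids part. Many of these genes are transcribed together late in the cycle, from promoters that often hold CCAAT boxes and a cell cycle genes homology region (CHR), and their summed RNA is widely read as a sign of how many cells are cycling.

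The promoter letters that many members share are shown first. The choice by name did not use them, but they were searched as textbook features of mitotic gene promoters. Their share among the members is therefore not independent of that choice. RefSeq promoter windows (GRCm38.p6, 250 bases before to 50 after the start, 300 bases) were matched for 32 members; Ccna2, Aurkb, Cdc25c, Tpx2, Foxm1, Dlgap5, Pbk and Bora were not matched. CHR letters, searched as TTTGAA or TTCGAA on both strands, stood in 23 of the 32 windows (71.9%), beside 3757 of all 20449 mouse promoter windows (18.4%) and 13.8% of the windows of tested genes. In the last 100 bases of the window they stood in 22 of 32 (68.8%), beside 4.62% of all promoters. The CCAAT box, searched as CCAAT on both strands, stood in 24 of 32 (75.0%), beside 38.2% of all promoters, and at least 2 copies stood in 17 of 32 (53.1%), beside 12.7%. Both kinds of letters stood in 21 of 32 (65.6%), beside 7.33% of all promoters. One pair of matches to the different motifs shared a base, in Cdca8, and a pair of CCAAT matches overlapped in Ube2c. The RefSeq start lay within 50 bases of the start in the count table for 26 of the 32 windows, of which 20 held CHR and 20 CCAAT letters. For the other 6 (Ccnb1, Cenpa, Mad2l1, Pttg1, Cdca3 and Cdca8) it lay 84 to 2394 bases away, so their windows may not cover the start that was counted. A match describes the letters and is not a measured binding site.

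The promoters printed below cover 120 bases, from 100 before to 20 after the RefSeq start, 5′ to 3′ in the direction of transcription, with CHR and CCAAT letters on either strand in capitals. Promoters were printed only where the RefSeq start lay within 10 bases of that in the count table and the printed stretch held CHR letters. Every printed promoter therefore holds CHR letters by choice. Nusap1, which also differed between library numbers, was left out because its window holds neither kind of letters. The letters can be read in genes that differed between library numbers (Cdc25b, Ccnb2). They can also be read in genes not called in the tests reported (Prc1, Cdc20, Bub1, Top2a). The regions are, in GRCm38, chr2:131186848-131186967 (plus strand), chr9:70421535-70421654 (minus strand), chr7:80294351-80294470 (plus strand), chr4:118437324-118437443 (minus strand), chr2:127831840-127831959 (minus strand) and chr11:99024170-99024289 (minus strand) in that order. In Cdc25b and Ccnb2 the CHR letters begin 8 and 5 bases after the start, and the CCAAT letters lie upstream of them.
Cdc25b: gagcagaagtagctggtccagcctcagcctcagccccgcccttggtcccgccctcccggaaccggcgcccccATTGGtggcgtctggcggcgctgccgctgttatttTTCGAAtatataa
Ccnb2: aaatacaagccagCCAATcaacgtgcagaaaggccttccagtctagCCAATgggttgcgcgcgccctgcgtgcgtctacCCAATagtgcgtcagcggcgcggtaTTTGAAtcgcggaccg
Prc1: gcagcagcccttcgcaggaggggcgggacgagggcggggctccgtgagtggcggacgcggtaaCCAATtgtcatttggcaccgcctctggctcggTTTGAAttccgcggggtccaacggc
Cdc20: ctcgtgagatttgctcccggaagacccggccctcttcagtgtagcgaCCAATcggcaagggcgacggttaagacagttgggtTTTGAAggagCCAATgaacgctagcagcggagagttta
Bub1: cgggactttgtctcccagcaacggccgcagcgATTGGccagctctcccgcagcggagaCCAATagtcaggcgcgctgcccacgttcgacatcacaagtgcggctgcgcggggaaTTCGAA
Top2a: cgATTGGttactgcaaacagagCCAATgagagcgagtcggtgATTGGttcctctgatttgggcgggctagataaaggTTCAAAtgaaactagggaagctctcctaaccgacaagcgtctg

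**Figure D1:**
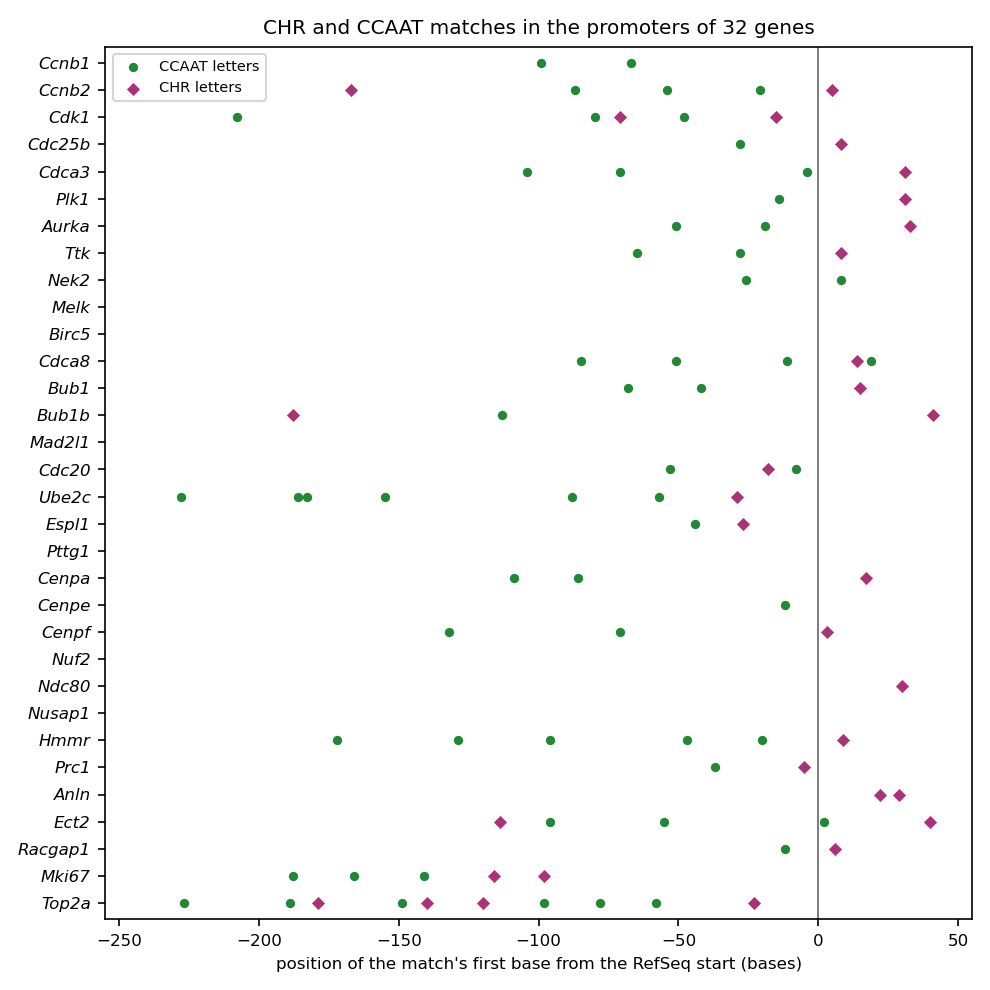
Positions of CCAAT (circles) and CHR (diamonds) letters in the 32 matched promoter windows, with the distance of each match's first base from the RefSeq start in bases on the x axis and the members in rows by role. Most CHR letters lie within 50 bases of the start and most CCAAT letters upstream of the start, while the windows of Melk, Birc5, Mad2l1, Pttg1, Nuf2 and Nusap1 hold neither.

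Library totals ran from 14991019 to 19790073 counts, and each member held between 352 and 18074 counts in a library. Levels per library are given as CPM, counts per 1000000 counts of the tested genes after TMM scaling. Irs2, the gene targeted by the hairpin, stood at 31.0, 23.0 and 34.2 CPM in shControl 1 to 3 and 31.4, 29.2 and 38.6 CPM in shIRS2 1 to 3. The mean of the libraries labelled shIRS2 was no lower than that of shControl and the groups overlap, with a log2 fold change of 0.17 (SE 0.16, 95% interval -0.20 to 0.54) and adjusted p = 1.000 by edgeR's quasi-likelihood test. A two-sided exact permutation test of log2 CPM gave p = 0.5, where 0.1 is the smallest p that 3 libraries against 3 allow. Every direction below is therefore a difference between libraries labelled shIRS2 and shControl. The labelled cell type was also not borne out by its markers: of 16 enteroendocrine genes, 5 had 0 counts in all libraries (Gcg, Chga, Pcsk1, Neurod1 and Sct) and only Pax6 (23.7 CPM) and Foxa2 (4.08 CPM) exceeded a mean of 1 CPM. The sum of that list was 27.6 to 30.7 CPM in shControl and 25.2 to 30.3 CPM in shIRS2. Of 10 fibroblast genes, 5 exceeded a mean of 1 CPM: Col3a1 (736 CPM), Pdgfra (57.6 CPM), Pdgfrb (43.0 CPM), Col1a2 (3.69 CPM) and Lum (2.63 CPM). Col1a1 (0.205 CPM), Dcn (0.254 CPM) and Fap (0.0585 CPM) stayed below, and Postn and Thy1 were at 0. The sums of the list, of which Col3a1 is the largest part, were 637 to 963 CPM in shControl and 866 to 986 CPM in shIRS2.

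The mitotic genes together took 0.755, 0.724 and 0.727% of the counts of shControl 1 to 3 and 0.777, 0.724 and 0.736% of those of shIRS2 1 to 3. The highest share was that of shIRS2 1, which was the highest of the 6 libraries for 16 members, and the shares of the groups overlap. In bulk RNA, fewer cells of a kind and less RNA per cell cannot be told apart. Per length, as mean FPKM (fragments per kilobase of listed gene length and 1000000 fragments) ± SD over 6 libraries, the members ran from 126 ± 12.1 for Ccnb2, a B-type cyclin, down to 8.33 ± 0.424 for Bora, a cofactor of Aurora A, which is a ratio of 15.1. Next to Ccnb2 stood Top2a, the topoisomerase that untangles chromosomes, at 106 ± 3.89, Cdc20, an activator of the APC/C, at 91.3 ± 6.50, and cyclin A2 (Ccna2) at 77.5 ± 3.87. The median of the 40 means was 32.9 FPKM and 9 members exceeded 50 FPKM. Of the 39 pairs of neighbours in this order, 35 had overlapping ranges over the 6 libraries. The 4 steps without overlap lay between Top2a and Cdc20, Cdc20 and Ccna2, Bub1b and Aurka, and Cenpf and Nuf2. This order depends on the listed gene length, which was 1531 bases for Ccnb2 and 4217 bases for Ccnb1. By mean CPM Ccnb1 stood higher, at 259 beside 194. Whether the listed lengths match the transcripts present was not tested, so the order may not be that of transcript abundance.

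**Figure D2:**
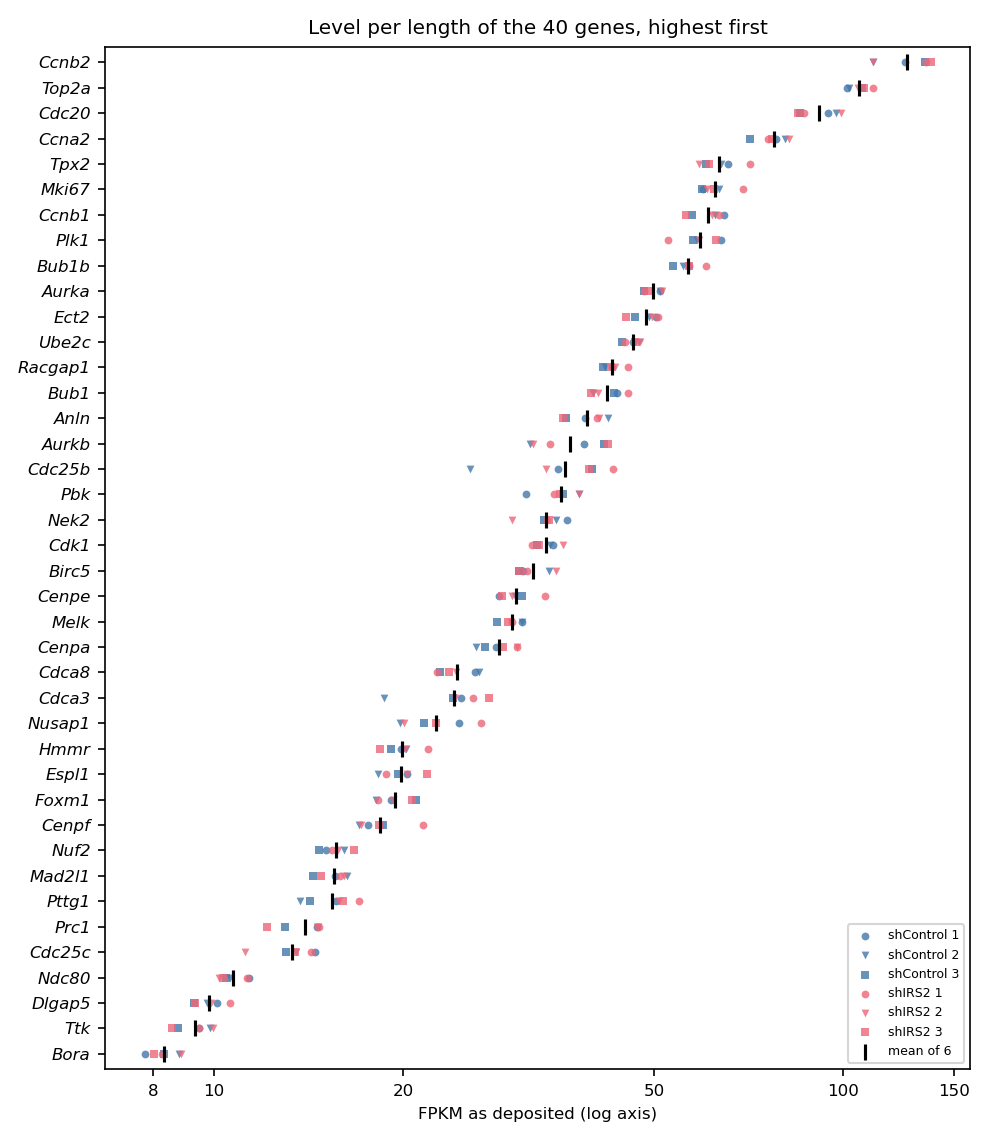
Deposited FPKM of each member on a log x axis, with 1 point per library coloured by group and a bar at the mean of 6, members ordered by mean. Levels span from 126 FPKM for Ccnb2 to 8.33 FPKM for Bora, and most neighbours overlap.

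No member passed the test between hairpin groups. By edgeR's quasi-likelihood test with Benjamini-Hochberg adjustment over all 13472 genes, 0 of 40 members were called at an adjusted p of 0.05, beside a background of 0% of all genes tested. At an unadjusted p of 0.05 there were also 0 members, beside 262 of all genes, and DESeq2 called 0 members and 2 of all genes. The fitted log2 fold changes, shIRS2 minus shControl, ran from -0.10 for Nek2 to 0.21 for Cdc25b, with 23 above and 17 below 0. Their median was 0.02, beside -0.00030 over all genes tested. Standard errors lay between 0.08 and 0.16. The 95% interval lay wholly within 1.25-fold in either direction for 34 of 40 members, beside 3851 of the 7590 genes averaging 20 CPM or more, and within 1.5-fold for all 40 members, beside 7201 of those 7590 genes. Those 7590 genes were not matched to the members in level. The groups did not overlap for 2 members, Cenpa and Pttg1, both higher in the libraries labelled shIRS2, beside a background of 6.35% of all genes. With the replicate number as a block, 0 members and 1 of all genes (0.00742%) were called, and the lowest adjusted p among members was 0.397, for Cdc25b. At an unadjusted p of 0.05 the block gave 3 members, Cdc25b, Cdca3 and Cenpa, beside 1234 of all genes. Their 95% intervals with the block were 0.06 to 0.39, 0.05 to 0.36 and 0.01 to 0.27 log2 units. In the fit with group alone, from which the intervals below come, the intervals of these members span 0. Within the numbered pairs, the median member difference was 0.03, 0.01 and 0.02 log2 units in pairs 1, 2 and 3. The sign was positive in all 3 pairs for 9 members and negative in all 3 for Ccnb1 and Ndc80.

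**Figure D3:**
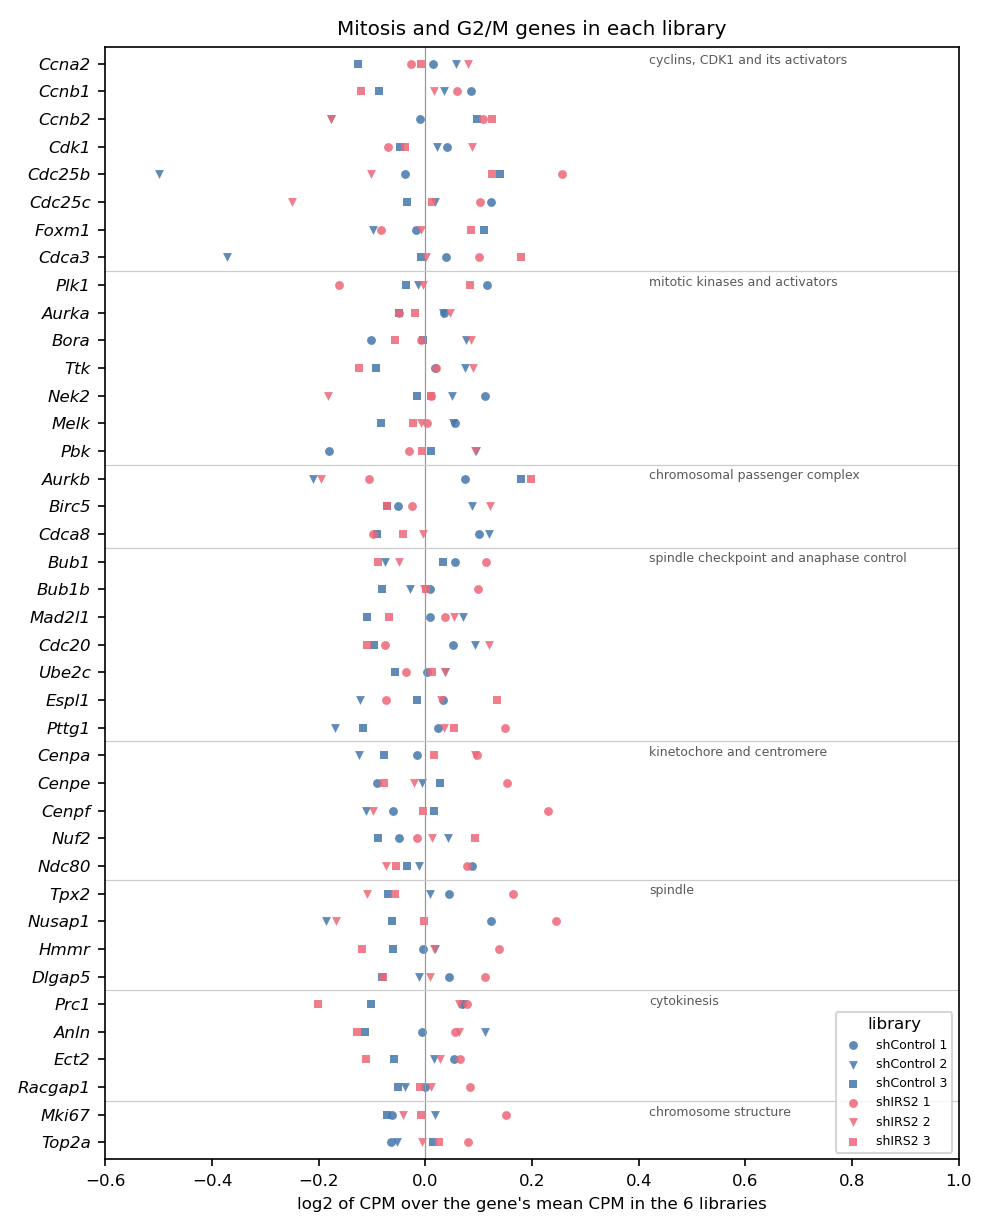
Log2 of each member's CPM in each library over the member's mean CPM of the 6 libraries on the x axis, with members by role in rows and libraries marked by group and number. The ratio of highest to lowest library is under 1.5 for 39 of 40 members, and Cdc25b, with 95.6 CPM in shControl 2 and 162 CPM in shIRS2 1, spreads widest.

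Some members differed between libraries of different number. An edgeR quasi-likelihood F test of the 2 number terms, with group in the model, called 4 of 40 members, Cdc25b, Aurkb, Nusap1 and Ccnb2. This is 10%, beside a background of 19.6% of all genes tested and 27.3% of those averaging 20 CPM or more. In the contrast of number 2 with the mean of numbers 1 and 3, 5 members were lower, namely those 4 and Cdca3, beside 11.9% of all genes, and 0 members were higher, beside 11.6%. The contrast was chosen because the libraries numbered 2 had stood apart in earlier results of these data, so its p-values are not independent evidence of that. Among genes averaging 20 CPM or more, as every member did, 1098 of 7590 genes were lower and 1291 higher. The share of members lower is near its background and the share higher lies below it. Nothing particular to mitotic genes is read from either. The contrasts of the 3 numbers share libraries and are not independent of each other. The 35 members not called in the contrast of number 2 had values of -0.16 to 0.16, with a lowest adjusted p of 0.0786. Number 1 was higher than the others for Nusap1 (0.29, adjusted p = 0.0375 by edgeR), beside 1.27% of all genes, and number 3 was higher for Aurkb (0.30, adjusted p = 0.0199 by edgeR), beside 5.00%. Both number 2 libraries lay below the other 4 for Ccnb2, Cdc25b, Aurkb, Cenpf and Nusap1, beside 20.1% of all genes. They lay above the other 4 for 9 members, Cdc20, Ccna2, Ube2c, Anln, Pbk, Birc5, Mad2l1, Ttk and Bora, beside 20.0%. The median size of the contrast was 0.09 over members, 0.15 over genes of at least 20 CPM and 0.19 over all genes. The coefficient of variation over 6 libraries had a median of 6.03% over members and 8.82% over genes of at least 20 CPM. That set has only a floor, and the members' median in a library was 125 to 134 CPM. The set was not matched to the members in level, so no difference in stability is read from these values. Values that move with number 2 were the mitochondrial transcripts, 8 of 12 of which were higher there, at 1.63 and 1.71% of counts beside 1.25 to 1.61% in the other 4 libraries. Of 5 fibroblast genes tested, Pdgfrb was higher (0.33, adjusted p = 0.0143 by edgeR), Pdgfra was lower (-0.67, adjusted p = 4.27e-05 by edgeR) and 3 were not called, and the sums of the list overlap between number 2 (637 and 866 CPM) and the others (643 to 986 CPM). Irs2 itself was lower in number 2 (-0.38, adjusted p = 0.0107 by edgeR) and also higher in number 3 (0.35, adjusted p = 0.0315 by edgeR). The part of these in the members' differences was not tested.

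**Figure D4:**
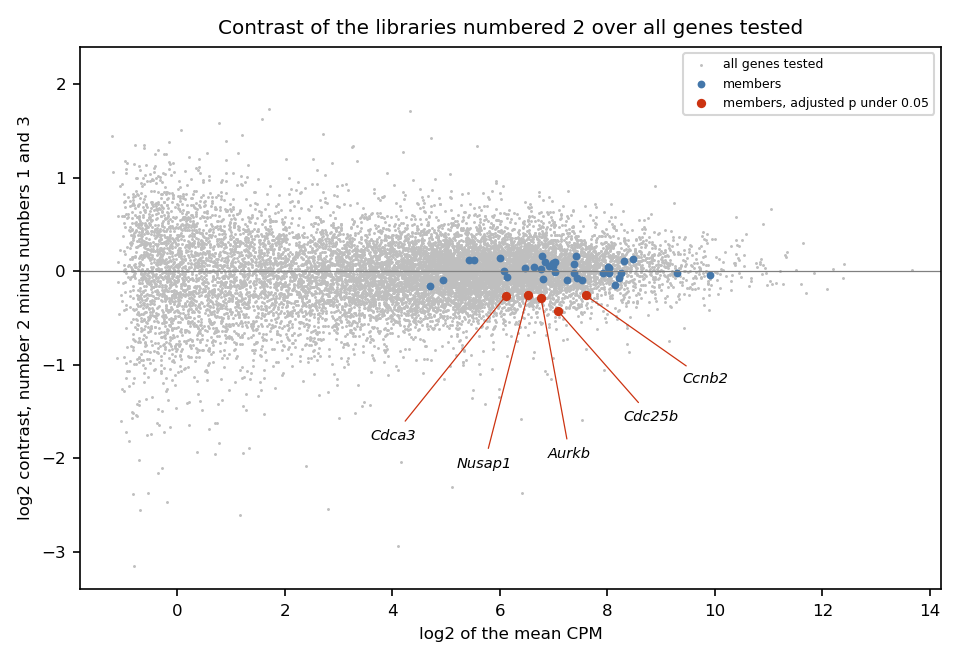
Contrast of the libraries numbered 2 with those numbered 1 and 3, in log2 units on the y axis, against the log2 mean CPM for all 13472 genes tested (grey), with the 40 members in blue and the 5 called members in red. The members lie between -0.42 and 0.16, inside a cloud that reaches from -3.15 to 1.73.

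Among cyclins, CDK1 and its activators (8 members), 0 passed between hairpins and 3 were lower in number 2. Cdc25b, a phosphatase that activates CDK1 at the start of mitosis (chr2:131186949-131198497), stood at 132, 95.6 and 149 CPM in shControl 1 to 3 and 162, 126 and 148 CPM in shIRS2 1 to 3. The number 2 library was the lowest of its group in both groups, and the hairpin groups overlap. Its number 2 contrast was -0.42 (SE 0.08, 95% interval -0.60 to -0.25, adjusted p = 0.00216) by edgeR, the largest in size of any member, and its hairpin difference was 0.21 (SE 0.16, 95% interval -0.15 to 0.56). In the count table Cdc25b overlaps Spef1 on the opposite strand at chr2:131186949-131187282. The counts of Spef1 over its whole length were 13.9% of those of Cdc25b. Ccnb2 (chr9:70407692-70421547) stood at 193, 172 and 208 CPM in shControl 1 to 3 and 209, 172 and 212 CPM in shIRS2 1 to 3. Both number 2 libraries were below the other 4, and the hairpin groups overlap. The contrast was -0.26 (SE 0.06, 95% interval -0.39 to -0.12, adjusted p = 0.00887) by edgeR, and the hairpin difference was 0.05 (SE 0.11, 95% interval -0.19 to 0.30). Ccnb1, the other B-type cyclin, stood at 274, 265 and 243 CPM in shControl 1 to 3 and 269.5, 261 and 238 CPM in shIRS2 1 to 3. In Ccnb1 the lowest libraries were those numbered 3, the contrast of number 2 was 0.04, and the hairpin difference was -0.03. Cdca3, a trigger of mitotic entry through destruction of the kinase WEE1, stood at 71.2, 53.6 and 69.0 CPM in shControl 1 to 3 and 74.4, 69.5 and 78.6 CPM in shIRS2 1 to 3. Only shControl 2 was well below the rest, the hairpin groups overlap, and the contrast was -0.26 (SE 0.08, 95% interval -0.43 to -0.09, adjusted p = 0.0252) by edgeR. The hairpin difference of Cdca3 was 0.20 (SE 0.12, 95% interval -0.07 to 0.47). Cdk1, the kinase itself, stood at 172, 169 and 162 CPM in shControl 1 to 3 and 159, 177 and 163 CPM in shIRS2 1 to 3, with both groups overlapping and a hairpin difference of -0.01 (SE 0.08, 95% interval -0.20 to 0.18). The transcription factor Foxm1, which drives many of these genes, stood at 111, 105 and 121 CPM in shControl 1 to 3 and 106, 111 and 119 CPM in shIRS2 1 to 3. The number 3 libraries were the highest of each group, and the hairpin difference of Foxm1 was -0.00068. Ccna2 averaged 318 CPM and Cdc25c, another CDK1 phosphatase, 26.0 CPM, with hairpin differences of 0.03 and -0.07 and number 2 contrasts of 0.11 and -0.16, none past the threshold.

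Of the 7 mitotic kinases and their activators, 0 passed either the hairpin test or the number tests. Plk1, the Polo-like kinase of the centrosome and spindle, stood at 142, 129 and 127 CPM in shControl 1 to 3 and 117, 130.2 and 138 CPM in shIRS2 1 to 3. Aurka, the Aurora kinase of the spindle poles, stood at 130.1, 129.9 and 123 CPM in shControl 1 to 3 and 123, 131 and 125 CPM in shIRS2 1 to 3. The groups overlap for both, with hairpin differences of -0.05 (SE 0.09, 95% interval -0.26 to 0.16) and -0.01 (SE 0.08, 95% interval -0.19 to 0.17). Aurka had a coefficient of variation of 3.04% over 6 libraries. Bora, which helps Aurora A to activate PLK1 and is the lowest member per length, stood at 40.2, 45.5 and 43.0 CPM in shControl 1 to 3 and 42.9, 45.8 and 41.5 CPM in shIRS2 1 to 3. Both number 2 libraries were highest in Bora, but the contrast of 0.12 did not pass (adjusted p = 0.277 by edgeR). The checkpoint kinase Ttk averaged 46.2 CPM, the centrosomal kinase Nek2 153 CPM, and the kinases Melk and Pbk 88.9 CPM and 64.0 CPM. Their hairpin differences were -0.0036, -0.10, -0.02 and 0.04, and their number 2 contrasts 0.13, -0.09, 0.03 and 0.15. Nek2 thus had the most negative hairpin estimate of all members, with a 95% interval of -0.30 to 0.10.

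The chromosomal passenger complex corrects faulty attachments of chromosomes to the spindle, and 1 of its 3 members here differed between numbers. Aurkb, its kinase (chr11:69045647-69051664), stood at 115, 94.2 and 123 CPM in shControl 1 to 3 and 101, 95.2 and 125 CPM in shIRS2 1 to 3. Number 2 was lowest and number 3 highest within each group, and the hairpin groups overlap. The number 2 contrast was -0.29 (SE 0.07, 95% interval -0.44 to -0.14, adjusted p = 0.00935) by edgeR, and the hairpin difference -0.05 (SE 0.13, 95% interval -0.34 to 0.25). Birc5, the survivin subunit, stood at 106, 117 and 104 CPM in shControl 1 to 3 and 108, 119 and 105 CPM in shIRS2 1 to 3. Here both number 2 libraries were the highest, opposite to Aurkb, with a contrast of 0.16 that did not pass (adjusted p = 0.0936 by edgeR). Cdca8, the borealin subunit, averaged 126 CPM, with a hairpin difference of -0.09 and a number 2 contrast of 0.09. It overlaps 9930104L06Rik on the opposite strand at chr4:124937048-124939311. The counts of 9930104L06Rik over its whole length were 14.1% of those of Cdca8.

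Among the 7 genes of the spindle checkpoint and anaphase control, 0 passed any of the tests. Bub1, a checkpoint kinase, stood at 191, 175 and 189 CPM in shControl 1 to 3 and 199, 178 and 173 CPM in shIRS2 1 to 3. Ube2c, the ubiquitin-conjugating enzyme of the APC/C, stood at 121, 124 and 116 CPM in shControl 1 to 3 and 118, 124 and 122 CPM in shIRS2 1 to 3, the narrowest spread of any member with a coefficient of variation of 2.64%. The hairpin groups overlap for both, with differences of -0.01 (SE 0.09, 95% interval -0.21 to 0.19) and 0.0095 (SE 0.08, 95% interval -0.17 to 0.19). Cdc20 stood at 178, 183 and 160.3 CPM in shControl 1 to 3 and 163, 186 and 159 CPM in shIRS2 1 to 3, with both number 2 libraries highest and a contrast of 0.16 (adjusted p = 0.0786 by edgeR). Its neighbour Elovl1, with 46.7% as many counts over its whole length, overlaps it on the opposite strand only at chr4:118432901-118432953. Pttg1, securin, which holds separase inactive, stood at 31.4, 27.5 and 28.5 CPM in shControl 1 to 3 and 34.3, 31.7 and 32.1 CPM in shIRS2 1 to 3. All 3 libraries labelled shIRS2 were above all 3 of shControl, by 0.17 (SE 0.11, 95% interval -0.07 to 0.40) log2 units, with an unadjusted p of 0.146 and adjusted p = 1.000 by edgeR. The checkpoint proteins Bub1b and Mad2l1 averaged 244 CPM and 131 CPM and separase, Espl1, 174 CPM. Their hairpin differences were 0.07, 0.02 and 0.07, and their number 2 contrasts -0.02, 0.10 and -0.07.

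Of the 5 kinetochore and centromere genes, 0 passed a test. Cenpa, the histone variant that marks centromeres, had the smallest unadjusted p of any member between hairpins and stood at 165, 153 and 158 CPM in shControl 1 to 3 and 179, 178 and 169 CPM in shIRS2 1 to 3. The libraries labelled shIRS2 were all above those of shControl, by 0.14 (SE 0.08, 95% interval -0.04 to 0.32) log2 units, with an unadjusted p of 0.107 and adjusted p = 1.000 by edgeR. Cenpf, a kinetochore protein of G2 and mitosis, averaged 284 CPM, and both number 2 libraries were below the other 4, with a contrast of -0.15 (adjusted p = 0.139 by edgeR). The motor Cenpe averaged 262 CPM, and Nuf2 and Ndc80, which bind microtubules as parts of 1 complex, averaged 99.4 CPM and 69.8 CPM. The hairpin differences of Cenpf, Cenpe, Nuf2 and Ndc80 were 0.10, 0.04, 0.06 and -0.03. Number 2 contrasts of Cenpa, Cenpe, Nuf2 and Ndc80 were -0.02, -0.02, 0.04 and -0.06.

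Among the 4 spindle genes, 1 differed between numbers. Nusap1, which bundles spindle microtubules (chr2:119618298-119651244), stood at 99.98, 80.6 and 87.8 CPM in shControl 1 to 3 and 109, 81.7 and 91.6 CPM in shIRS2 1 to 3. Number 1 was the highest and number 2 the lowest in each group, and the hairpin groups overlap. The number 2 contrast was -0.25 (SE 0.07, 95% interval -0.40 to -0.10, adjusted p = 0.0167) by edgeR, and the hairpin difference 0.07 (SE 0.13, 95% interval -0.21 to 0.35). Oip5, with 16.3% as many counts over its whole length, overlaps Nusap1 on the opposite strand only at chr2:119618298-119618469. Tpx2, an activator of Aurora A on microtubules, averaged 299 CPM, and the spindle proteins Hmmr and Dlgap5 averaged 109 CPM and 67.2 CPM. Their hairpin differences were 0.0094, 0.03 and 0.03, and their number 2 contrasts -0.07, 0.03 and -0.00023.

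The 4 cytokinesis genes had 0 calls. Prc1, which bundles the microtubules of the central spindle, stood at 121, 121 and 107 CPM in shControl 1 to 3 and 122, 120.3 and 100.2 CPM in shIRS2 1 to 3. The number 3 libraries were the lowest for Prc1, with a contrast of number 3 against the others of -0.22 (adjusted p = 0.0577 by edgeR). Anln, the scaffold anillin of the contractile ring, stood at 355, 385 and 329.5 CPM in shControl 1 to 3 and 370.3, 372 and 326 CPM in shIRS2 1 to 3. Number 3 was again the lowest, with -0.18 (adjusted p = 0.0873 by edgeR). The hairpin differences of Prc1 and Anln were -0.03 (SE 0.10, 95% interval -0.26 to 0.20) and -0.00068 (SE 0.09, 95% interval -0.21 to 0.21). Ect2, which activates RhoA at the division plane, averaged 263 CPM, and its partner Racgap1 305 CPM, with hairpin differences of -0.0079 and 0.06 and number 2 contrasts of 0.03 and -0.02.

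The 2 chromosome genes had 0 calls in any test. Mki67, the proliferation marker Ki-67 that coats mitotic chromosomes, stood at 605, 640.4 and 602 CPM in shControl 1 to 3 and 702, 614 and 629 CPM in shIRS2 1 to 3. Top2a stood at 917, 924 and 968 CPM in shControl 1 to 3 and 1014, 955 and 976 CPM in shIRS2 1 to 3. In both, shIRS2 1 was the highest library and the groups overlap, with hairpin differences of 0.07 (SE 0.08, 95% interval -0.11 to 0.26) and 0.07 (SE 0.08, 95% interval -0.10 to 0.24), and number 2 contrasts of -0.01 and -0.04.

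**Figure D5:**
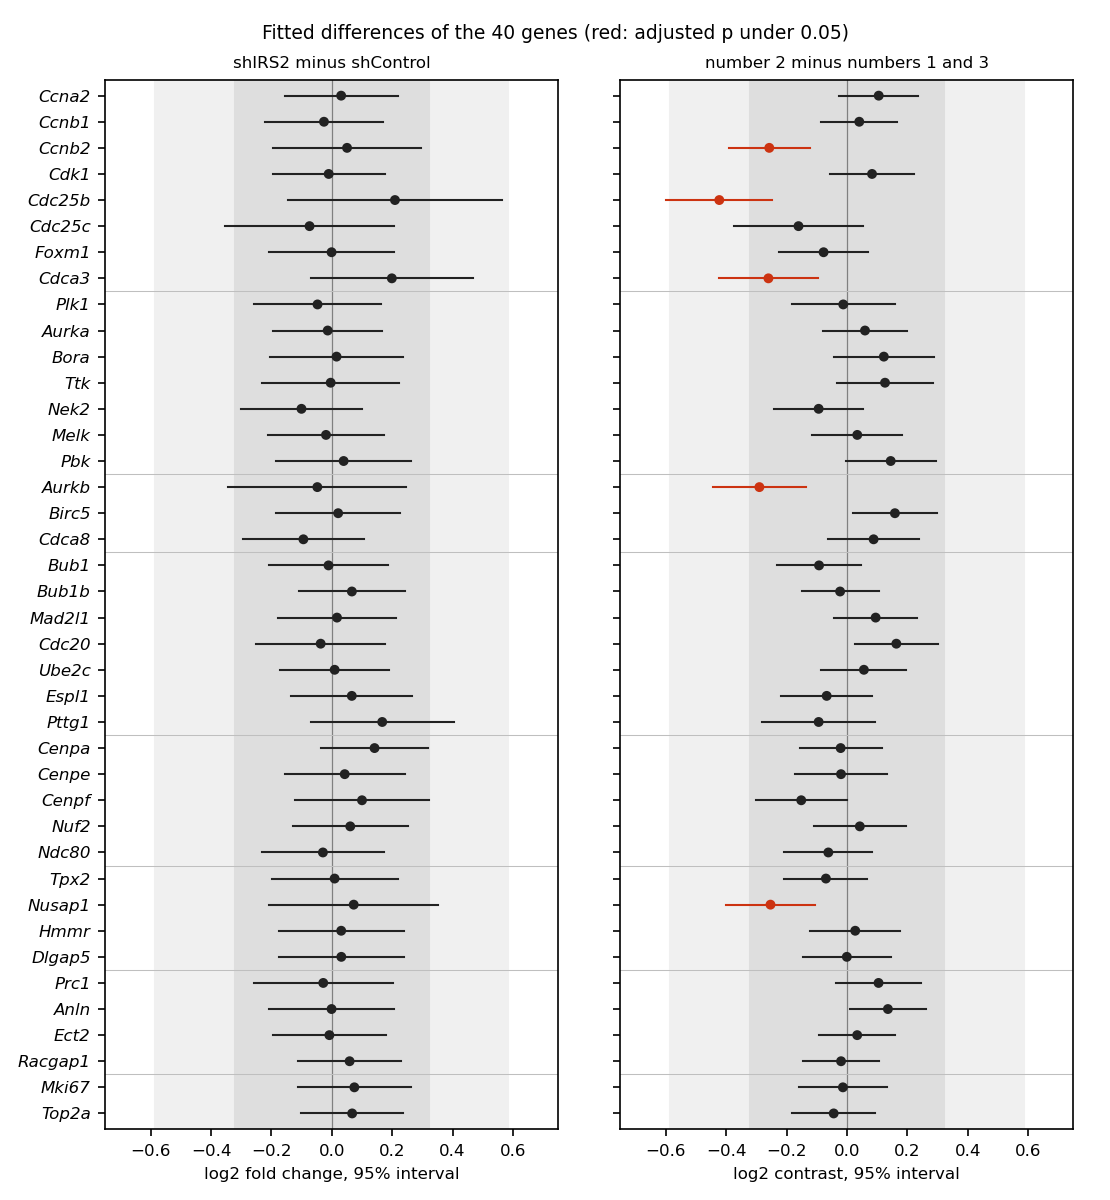
Fitted log2 differences with 95% intervals for each member, for shIRS2 minus shControl and for number 2 minus numbers 1 and 3, with members by role in rows and an adjusted p under 0.05 in red. The dark band marks 1.25-fold and the light band 1.5-fold in either direction; every hairpin interval lies within the light band, and 5 members are red in the number 2 contrast.

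Other genes of the same machinery, in 6 lists of 123 genes (APC/C, condensins and cohesin, kinetochore and checkpoint, spindle and cytokinesis, G2 entry, MuvB and DREAM regulators), were read from the same fit. Between hairpins 0 of 123 were called by edgeR, with a median of 0.0074, and the number F test called 13 (10.6%), beside 19.6% of all genes. In number 2, 13 were lower and 6 higher, beside 11.9% and 11.6% of all genes. The APC/C subunits Anapc2 and Anapc11 and the activator Fzr1 were lower, with contrasts of -0.31 (adjusted p = 0.00329), -0.31 (adjusted p = 0.00546) and -0.22 (adjusted p = 0.0380) in edgeR. Among spindle and cytokinesis genes the citron kinase Cit (-0.39, adjusted p = 0.00307), Spag5 (-0.22, adjusted p = 0.0279) and Sapcd2 (-0.29, adjusted p = 0.0482) were lower in edgeR. G2 entry genes split: Cdc25a, the CDC25 phosphatase that also acts at the start of S phase, was higher by 0.63 (adjusted p = 4.37e-05) in edgeR, and the lamin Lmnb1 by 0.32 (adjusted p = 0.00267), while the checkpoint kinase Chek2 was lower (-0.39, adjusted p = 0.0391). The 3 CDC25 genes thus had number 2 contrasts of 0.63 (Cdc25a, higher), -0.42 (Cdc25b, lower) and -0.16 (Cdc25c, not called). Of 12 regulators that bind CHR letters or act with those that do, 4 passed the number F test by edgeR. In the number 2 contrast 2 of the 12 were higher by edgeR, Mybl2 (0.33, adjusted p = 0.00546) and Lin9 (0.32, adjusted p = 0.00805). Another 2 were lower, among them Tfdp2 (-0.23, adjusted p = 0.0499 by edgeR), and the lowest contrast of this list was -0.46. Of the kinetochore genes, Nsl1 was higher (0.38, adjusted p = 0.00405) and 2 were lower, among them Ska1 (-0.35, adjusted p = 0.0236), in edgeR. Of the condensin and cohesin genes, Stag1 was higher (0.26, adjusted p = 0.00945) and 2 were lower, among them Ncapd2 (-0.20, adjusted p = 0.0290), in edgeR. Members lower in number 2 with a matched promoter held CHR letters in 3 of 4, beside 20 of 28 of those not called, which is no more than a count.

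Set beside the nearest gene groups, 13 mitotic kinesins had 0 hairpin calls, a median hairpin difference of -0.0084 and 1 number F call by edgeR, the kinesin Kifc1, lower in number 2 (-0.36, adjusted p = 0.00570). The 45 replication and G1/S genes had 0 hairpin calls, a median of -0.04 and 10 number F calls (22.2%) by edgeR, beside 19.6% of all genes, with 9 genes higher and 2 lower in number 2. Cyclin E2 (Ccne2) was higher by 0.42 (adjusted p = 8.69e-04) and the ribonucleotide reductase subunit Rrm2 by 0.32 (adjusted p = 0.00149), and the transcription factor E2f1 was lower (-0.30, adjusted p = 0.00683), in edgeR. Whether the mitotic genes differ from these groups was not tested.

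Fits without 1 of the libraries numbered 2 leave a single library of that number. They made fewer calls in the number 2 contrast, with Cdc25b the only member called in either. The cause of the lost calls was not tested. The contrasts themselves kept their sign. Without shControl 2 and without shIRS2 2 they were -0.29 and -0.22 for Ccnb2, -0.24 and -0.34 for Aurkb, -0.29 and -0.22 for Nusap1, -0.29 and -0.55 for Cdc25b and -0.14 and -0.38 for Cdca3. Cdca3 was the member of the 5 that moved by more than 1.5 times when shControl 2 was left out, and it was not called by DESeq2. The strand setting of the counting was not given in the sources used here, so counts of members overlapping an opposite-strand gene are uncertain. For 7 members the overlapping gene held counts above 1% of the member's own. Among them were also Ccna2 with Exosc9 (20.5%), Prc1 with Rccd1 (4.64%) and Cdc25c with Gm3550 (1.86%). These percentages take the counts of the whole overlapping gene, and reads in the shared bases were not counted apart.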

How the data were processed

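RNA-seq of 6 libraries (3 shControl, 3 shIRS2) was analysed from gene tables that the authors deposited: raw read counts per gene for 54532 genes, and FPKM for the same libraries and genes, with the gene length. Per the submitters' processing notes, the genome build is mm10. Aligner, counter and strand setting were not given in the sources used here. Libraries were made strand-specific with dUTP, per the labels' protocols. Columns beginning NC were read as control and S as shIRS2, from the names alone. The deposited FPKM matched counts over gene length and a total within 0.985 to 1.02 of the count sum.

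The counts were fitted with edgeR 4.0.16 in R 4.3.3. The filter filterByExpr by group left 13472 genes with 99.9% of counts, libraries were TMM-scaled, and robust quasi-likelihood tests were run with group alone, or with number and group for the numbers. P-values were two-sided, adjusted by Benjamini-Hochberg over all 13472 genes, with a threshold of 0.05; intervals are 95%. Simulated data were used only for the edgeR test between groups and for a contrast between numbers, and the recovery is not given here. The F test of the numbers, the replicate block and the other alternatives were not tested on simulated data. Deviations from group means correlated between same-numbered libraries at 0.17, 0.58 and 0.26, over 0.1 in each of the 3 pairs. Over the members alone these correlations were 0.21, 0.71 and 0.53. Of the libraries, 4 correlated best with the same number in the other group. The number was a block in an alternative fit, while hairpin differences, standard errors and intervals come from the fit with group alone. The labels do not say what the numbers mark. Alternatives were DESeq2 1.42.0, limma 3.58.1 (voom, and log2 of FPKM plus 1 or 0.1), RLE scaling, other filters, a replicate block, no group term and leaving out each library. All 40 members were to be named. Values per library are given for 11 textbook genes, the 4 lowest p-values between hairpins, the 8 lowest between numbers, and the highest and lowest FPKM; in other lists up to 3 genes by their p between numbers. The members and lists were chosen with earlier results of these data known.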

Additional observations from a re-analysis of the deposited data

How the results depend on the processing

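No member was called between hairpins under any alternative run, including the fit with the replicate block and that without both libraries numbered 2, which was chosen after seeing the data. Over all genes, 0 hairpin calls became 2 with DESeq2, 6 with no filter on low counts and 1 with the replicate block, which changed no call of a member. The members' median log2 fold change of 0.02 ran from -0.0015 without shControl 3 to 0.045 without shIRS2 3. Signs of uncalled hairpin differences changed in at least 1 alternative for 28 members, the largest of which was 0.10 in size in the fit reported.

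Between numbers, the 4 member calls fell to 0 in both limma fits of FPKM and ran from 0 (without shControl 2) to 10 (without shControl 1) with 1 library left out, with 1 without shIRS2 2 and 8 without shIRS2 1. The 2638 calls over all genes became 1641 with DESeq2 and 803 and 864 with limma on log2 of FPKM plus 1 and plus 0.1, and ran from 798 to 3774 with 1 library left out. In the number 2 contrast the 5 member calls ran from 0 (without shControl 2) to 7 (without shControl 1), and the 3169 over all genes became 1968 with DESeq2 and 1836 and 1852 with the limma fits, and ran from 808 to 3687. Where a library was left out, fewer samples were fitted and the lone sample of a number is assumed to vary like the rest. The cause of the changes was not tested. Cdca3 lost its call with DESeq2, both FPKM fits and no group term. The 5 called contrasts of number 2 kept their sign. The called contrasts of numbers 1 and 3 are not given for the alternatives. Members gained were Cdc20 (0.20) and Cenpf (-0.22) without shControl 1, Cenpf (-0.19) without shIRS2 3 and Anln (0.16) without shIRS2 1. Each member held at least 352 counts in every library; how calls would change with depth or with more libraries was not tested.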

Other observations

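Processed pseudogenes of members also drew counts: Ccnb1-ps held 326 and Ccnb2-ps 259 counts over all 6 libraries, beside 3731 to 5180 counts of Ccnb1 and 2766 to 3693 of Ccnb2 in each library. How the counting divided reads between such copies and Ccnb1 or Ccnb2 was not given in the sources used here. Of the 6 libraries, shControl 3 was the lowest for 11 members and shIRS2 1 the highest for 16.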
